A study of Mus musculus with 6 samples.

Results

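*Scx*, *Mkx*, *Tnmd*, *Thbs4*, *Comp*, *Cilp*, *Cilp2* and *Kera* are genes of tendon and of cartilage-type matrix, and their RNA was measured in the soleus of mice with 1 disrupted copy of *Mustn1*. The 8 genes were taken by symbol from the 16247 genes of the authors' normalized table and joined by gene ID to the raw counts of 51912 genes. All 8 were found, and all 8 had enough reads to be tested. RNA-seq was run on soleus, a slow calf muscle, with 1 library per mouse, to ask which genes differ between mice heterozygous (HET) for the Mustn1 KO-first allele and their wild-type (WT) littermates. The 3 HET mice (genotype Mustn1_KO-first_het) and the 3 WT mice (Wildtype) were of the strain C57BL6/N, 8 weeks old and untreated as far as the labels say. The KO-first allele is a gene trap carried in every cell of the body: transcripts of *Mustn1* are caught by an inserted lacZ cassette, which also holds a neomycin marker, and only HET mice carry this insertion. The labels do not give which mice shared a litter.

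Tendon cells build a matrix of collagen fibrils, and the transcription factors scleraxis (*Scx*) and mohawk (*Mkx*) drive the genes of that matrix. Thrombospondins and small leucine-rich proteoglycans bind the fibrils and set how they assemble, and in skeletal muscle they lie at the ends of the fibers, in the connective tissue sheaths and in the attached tendon. In RNA from a whole muscle, fewer cells of a type and less RNA per cell cannot be told apart.

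The libraries held between 26790075 and 50368796 reads on genes. Reads on *Mustn1* itself were 471, 452 and 574 in HET against 691, 817 and 1504 in WT mice, numbered 1 to 3, and its log2 fold change was −0.96 (standard error, SE, 0.15, adjusted p = 0.0452, edgeR), so it was lower in the mice labelled HET. With 1 mouse left out, *Mustn1* passed in 2 of 6 fits, without HET mouse 2 and without WT mouse 3. In the other fits no gene of all tested passed. The sex given in the labels is male for all 6 mice. Each library nevertheless held between 3858 and 9154 reads on *Xist*, which is read from an inactive X chromosome, and between 0 and 12 reads on *Ddx3y*, *Kdm5d*, *Uty* and *Eif2s3y* of the Y chromosome together, so the RNA goes against that label in both genotypes. The 12 soleus fiber markers had a summed level of 93300 to 106000 CPM (the read count scaled to a common library size, with TMM factors) in HET and 99800 to 105000 CPM in WT mice. *Myh7*, the slow myosin heavy chain, was at a mean of 14200 CPM in HET and 14100 CPM in WT mice.

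In 7 of the 8 genes, every HET mouse had a higher level than every WT mouse, and this was so in 7.55% of all genes tested. Mean levels in HET mice were between 1.62 times (*Kera*) and 3.8 times (*Cilp2*) those in WT mice for these 7 genes, and 1.11 times for *Scx*. None of the 8 passed the edgeR test, with adjusted p between 0.323 and 0.893, where 0.143% of all genes tested were called higher in HET mice. The unadjusted edgeR p was below 0.05 in 6 of the 8, all with higher levels in HET mice, against 5.76% of all genes tested that were higher at this p and 2.0% that were lower. limma-voom called 0 of the 8. The DESeq2 test called *Cilp* and *Kera*, 2 of the 8, where it called 1.12% of all genes as higher. The log2 fold change was above 0 in all 8 genes, against 45.6% of all genes tested, and its median was 0.975 over the 8 genes and −0.02 over all genes. With 3 mice against 3, a two-sided exact permutation test of a single gene cannot go below p = 0.1. WT mouse 1 had the lowest level of the 6 mice in all 8 genes.

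**Figure D1:**
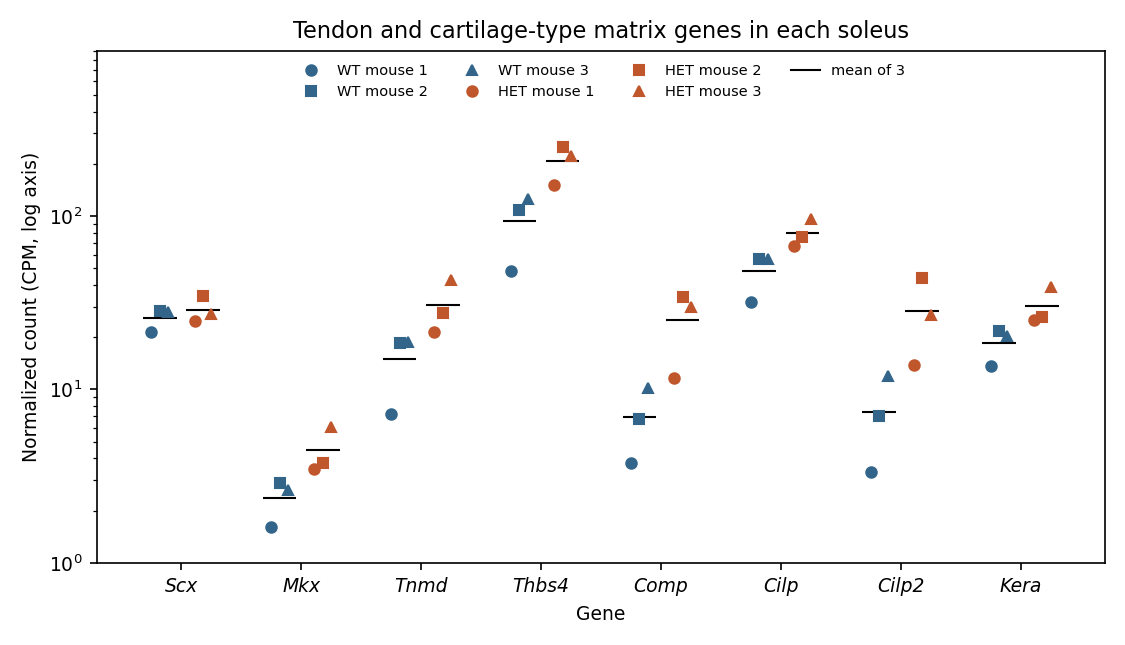
Normalized counts (CPM, log axis) of the 8 genes in each of the 6 mice, with WT mice in blue, HET mice in orange, a marker shape for each mouse number and a line at the mean of 3. The 3 HET points lie above the 3 WT points in every gene but *Scx*, and WT mouse 1 is the lowest point of each gene.

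Upstream sequence is shown for the 3 genes whose RefSeq promoter window (build GRCm38.p6) reaches upstream of the first exon in the count table. A link between these sequences and the levels was not tested. The windows of RefSeq hold 250 bases before and 50 bases after a start, and 5 of the 8 genes have one. Each sequence is written 5′ to 3′ on the strand of the gene and ends at the base before its first exon. Capitals mark CANNTG, the E-box, to which basic helix-loop-helix factors such as scleraxis bind. The pattern CANNTG, though not each word that fits it, reads the same on both strands.
Tnmd (chrX:133850758-133850979, plus strand): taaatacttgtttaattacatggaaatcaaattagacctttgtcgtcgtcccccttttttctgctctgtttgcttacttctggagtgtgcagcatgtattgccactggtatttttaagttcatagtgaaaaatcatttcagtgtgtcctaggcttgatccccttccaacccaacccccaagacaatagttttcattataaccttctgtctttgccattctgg
Thbs4 (chr13:92794819-92795068, minus strand): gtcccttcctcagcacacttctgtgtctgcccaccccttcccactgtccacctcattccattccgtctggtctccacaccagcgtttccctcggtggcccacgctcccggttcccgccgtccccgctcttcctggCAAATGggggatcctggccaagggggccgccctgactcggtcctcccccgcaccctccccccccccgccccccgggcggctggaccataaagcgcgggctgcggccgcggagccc
Cilp (chr9:65264930-65265179, plus strand): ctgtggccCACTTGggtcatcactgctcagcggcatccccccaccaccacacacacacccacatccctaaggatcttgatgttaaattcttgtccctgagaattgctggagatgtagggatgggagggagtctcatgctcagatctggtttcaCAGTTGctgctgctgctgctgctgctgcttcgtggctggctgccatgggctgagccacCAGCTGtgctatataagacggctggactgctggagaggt
The stretch of *Cilp* held 3 such words, at 242, 97 and 39 bases before the gene's start. The 250 bases of *Thbs4* held 1, CAAATG, 115 bases before the start. The 222 bases of *Tnmd* held 0. Of all 32817 RefSeq windows, 66.2% held CANNTG in the 250 bases before the start and 62.4% in the first 222 of them, so a match in such a stretch is common. None of the 3 stretches held CAGATG, 1 of the CANNTG words, on either strand, which 14.5% of windows hold in 250 bases and 13.1% in 222. Base composition differed, with 39.2% G and C in *Tnmd*, 70.8% in *Thbs4* and 56.0% in *Cilp*.

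*Scx* (ENSMUSG00000034161, chr15:76457438-76459468 in GRCm38, plus strand) encodes the basic helix-loop-helix factor that marks tendon progenitors. Its reads numbered 932, 925 and 1199 in HET mice 1 to 3 and 647, 796 and 1384 in WT mice. The normalized levels were 24.9, 34.5 and 27.3 CPM in HET mice and 21.6, 28.2 and 28.0 CPM in WT mice. The genotypes overlapped, since HET mice 1 and 3 lay below WT mice 2 and 3, and only HET mouse 2 was above all WT mice. The means were 28.9 ± 4.98 CPM (SD, n = 3) and 26.0 ± 3.75 CPM (SD, n = 3), a log2 fold change of 0.15 (SE 0.145, adjusted p = 0.893, edgeR). *Scx* lies within *Bop1* on the opposite strand, the exons of the pair share 0 bases, and the reads were counted by strand.

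*Mkx* (ENSMUSG00000061013, chr18:6910459-7004780, minus strand) encodes a homeobox factor needed for collagen fibril growth in tendon. It had the fewest reads of the 8 genes in every mouse, with 131, 101 and 267 in HET and 48, 81 and 130 in WT mice. Its levels were 3.5, 3.76 and 6.08 CPM in HET and 1.61, 2.87 and 2.63 CPM in WT mice 1 to 3. HET mice 1 and 2 were close to the upper WT mice, with the lowest HET level 1.22 times the highest WT level, and HET mouse 3 stood apart. The means were 4.45 ± 1.42 CPM (SD, n = 3) in HET and 2.37 ± 0.673 CPM (SD, n = 3) in WT mice, and the log2 fold change was 0.91 (SE 0.28, adjusted p = 0.323, edgeR).

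*Tnmd* (ENSMUSG00000031250, chrX:133850980-133865577, plus strand) encodes tenomodulin, a membrane glycoprotein of mature tendon cells. Levels of 21.5, 27.7 and 42.8 CPM were found in HET mice 1 to 3 against 7.26, 18.6 and 18.8 CPM in WT mice. WT mouse 1 had less than the other WT mice by a larger margin than separated the genotypes: the highest WT level was 2.58 times the lowest, and the lowest HET level was 1.15 times the highest WT level. The means were 30.7 ± 11 CPM (SD, n = 3) and 14.9 ± 6.60 CPM (SD, n = 3), a log2 fold change of 1.04 (SE 0.44, adjusted p = 0.685, edgeR). Without WT mouse 1, the log2 fold change was 0.72.

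*Thbs4* and *Comp* encode thrombospondins of the pentameric type, matrix glycoproteins that bind collagens. *Thbs4* (ENSMUSG00000021702, chr13:92751590-92794818, minus strand) was at 152, 251 and 221 CPM in HET mice and 48.1, 109 and 125 CPM in WT mice 1 to 3. All HET mice were above all WT mice, HET mouse 1 by the least. The mean was 208 ± 50.8 CPM (SD, n = 3) in HET and 94.0 ± 40.6 CPM (SD, n = 3) in WT mice, or 2.21 times as high, and the log2 fold change was 1.14 (SE 0.41, adjusted p = 0.582, edgeR).

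*Comp* (ENSMUSG00000031849, chr8:70373558-70382066, plus strand), the cartilage oligomeric matrix protein, was at 11.6, 34.1 and 30.0 CPM in HET mice 1 to 3 and at 3.75, 6.74 and 10.2 CPM in WT mice. HET mouse 1 was nearer to WT mouse 3 than to the other HET mice. The means of 25.3 ± 12 CPM (SD, n = 3) and 6.90 ± 3.24 CPM (SD, n = 3) gave a ratio of 3.66 and a log2 fold change of 1.85 (SE 0.55, adjusted p = 0.444, edgeR). By size of the log2 fold change, *Comp* ranked 36 and *Thbs4* 212 of the 14696 genes tested.

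*Cilp* and *Cilp2* encode secreted cartilage intermediate layer proteins, which were named for the layer of articular cartilage where the first of them was found. *Cilp* (ENSMUSG00000042254, chr9:65265180-65280605, plus strand) had levels of 67.7, 75.8 and 95.7 CPM in HET mice and 32.1, 56.9 and 56.3 CPM in WT mice 1 to 3. WT mice 2 and 3 were nearly equal and below every HET mouse. The means were 79.7 ± 14.4 CPM (SD, n = 3) and 48.4 ± 14.2 CPM (SD, n = 3), a log2 fold change of 0.72 (SE 0.23) with an adjusted p of 0.418 in edgeR and 0.0176 in DESeq2.

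*Cilp2* (ENSMUSG00000044006, chr8:69880369-69887687, minus strand) was at 13.9, 44.0 and 26.9 CPM in HET mice 1 to 3 and at 3.34, 7.06 and 11.9 CPM in WT mice. It varied most of the 8 genes within each genotype, with a coefficient of variation of 53.4% in HET and 57.8% in WT mice. The means were 28.3 ± 15.1 CPM (SD, n = 3) and 7.44 ± 4.3 CPM (SD, n = 3). The log2 fold change of 1.90 (SE 0.64, adjusted p = 0.567, edgeR) was the largest of the 8 and ranked 31 among all genes tested.

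*Kera* (ENSMUSG00000019932, chr10:97606879-97613692, plus strand) encodes keratocan, a small leucine-rich proteoglycan best known from the cornea that is also made in tendon. Its levels were 25.3, 26.3 and 39.0 CPM in HET mice 1 to 3 and 13.7, 21.8 and 20.3 CPM in WT mice. HET mice 1 and 2 lay just above WT mice 2 and 3, and HET mouse 3 was the highest. The means were 30.2 ± 7.60 CPM (SD, n = 3) and 18.6 ± 4.28 CPM (SD, n = 3), with a log2 fold change of 0.70 (SE 0.21) and an adjusted p of 0.340 in edgeR and 0.0306 in DESeq2. *Kera* and *Cilp*, the pair past the DESeq2 threshold, had the smallest log2 fold changes of the 7 genes without overlap and also the smallest standard errors of those 7.

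**Figure D2:**
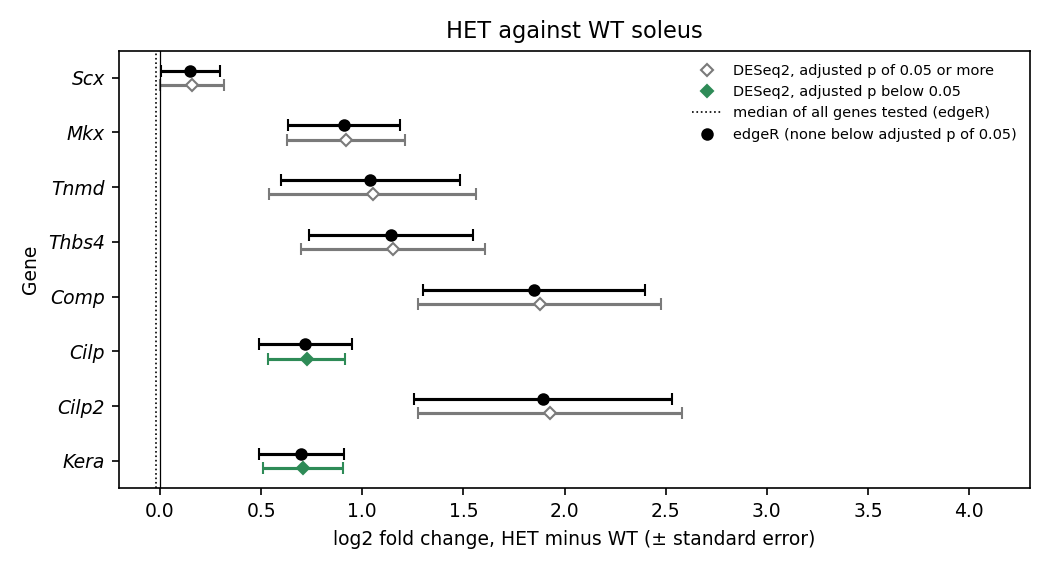
Log2 fold change (HET minus WT) of each gene with its standard error, from edgeR (black) and DESeq2 (diamonds, filled green where the adjusted p is below 0.05). The dotted line is the median of all genes tested, −0.02, and the estimates run from 0.15 for *Scx* to 1.90 for *Cilp2*.

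Levels of different genes were compared per kilobase of exon. In WT mice *Thbs4* had the highest mean, 28.6 ± 12.3 CPM per kb (SD, n = 3), and *Scx* followed with 22.9 ± 3.30 CPM per kb (SD, n = 3). Their ranges in WT mice, 14.6 to 38.1 and 19.0 to 24.9 CPM per kb, overlapped, so this order was not beyond the spread. *Cilp* (11.4 ± 3.33 CPM per kb), *Tnmd* (11 ± 4.88 CPM per kb) and *Kera* (8.17 ± 1.88 CPM per kb; SD, n = 3 for each) came next and overlapped one another. *Comp* and *Cilp2* were lower, at 2.33 ± 1.09 and 1.72 ± 0.996 CPM per kb (SD, n = 3), and overlapped each other. *Mkx*, the other transcription factor, was the lowest at 0.604 ± 0.172 CPM per kb (SD, n = 3), with each WT mouse below its own *Cilp2* level.

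In HET mice the order was the same but for *Tnmd* and *Cilp*. *Thbs4* reached 63.2 ± 15.4 CPM per kb (SD, n = 3), with its lowest HET mouse at 46.2 CPM per kb above the highest of *Scx* at 30.3 CPM per kb. *Tnmd* stood at 22.7 ± 8.12 CPM per kb and *Cilp* at 18.8 ± 3.38 CPM per kb (SD, n = 3 for each), which overlapped. *Comp* at 8.52 ± 4.04 and *Cilp2* at 6.55 ± 3.5 CPM per kb (SD, n = 3) overlapped as well. *Mkx* was again the lowest at 1.13 ± 0.362 CPM per kb (SD, n = 3).

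Within each genotype, mouse 1 differed from the others in the same direction in all 8 genes. WT mouse 1 was the lowest of all 6 mice in 8 of 8 genes, and HET mouse 1 was the lowest HET mouse in 8 of 8. Between mice 2 and 3 the genes divided, with 4 of 8 higher in mouse 3 in either genotype. The summed level of the 8 genes was 320, 497 and 489 CPM in HET mice 1 to 3 and 132, 251 and 273 CPM in WT mice. The gap between WT mice was thus as large as that between some mice of different genotype: on the log2 scale WT mouse 3 exceeded WT mouse 1 by a median of 1.09 over the 8 genes, and HET mouse 1 exceeded WT mouse 3 by a median of 0.24. HET mouse 1 was still above WT mice 2 and 3 in 7 of the 8 genes, with *Scx* as the exception in both.

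HET mice 2 and 3 each had the highest level in 4 genes. *Scx*, *Thbs4*, *Comp* and *Cilp2* peaked in HET mouse 2, and *Mkx*, *Tnmd*, *Cilp* and *Kera* in HET mouse 3. The largest departure from the WT mean was that of *Cilp2* in HET mouse 2, at 2.74 on the log2 scale, and *Comp* was at 2.41 in the same mouse. In HET mouse 3 these genes were at 2.03 and 2.23. With WT mouse 1 left out, log2 fold changes of the 8 genes lay between 0.04 for *Scx* and 1.56 for *Comp*, and with HET mouse 1 left out between 0.25 for *Scx* and 2.22 for *Cilp2*. None of the 8 passed the edgeR threshold with any 1 mouse left out. Without HET mouse 1, HET mouse 3, WT mouse 1 or WT mouse 2, however, no gene of all tested passed.

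**Figure D3:**
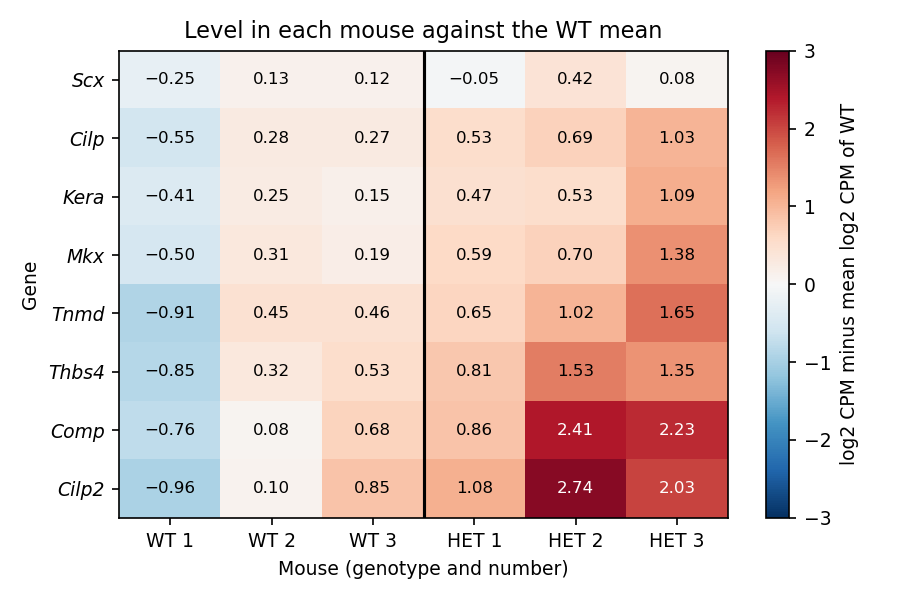
Level of each gene in each mouse, as log2 CPM minus the mean log2 CPM of the 3 WT mice (colour and printed value). The column of WT mouse 1 is below 0 in every gene, and the values of *Comp* and *Cilp2* in HET mice 2 and 3 lie between 2.03 and 2.74.

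Likeness between the genes was measured as the root mean square difference of log2 CPM over the 6 mice, after each gene was centred on its own mean. No gene was scaled to its spread, so the value depends on the size of the changes as well as on their pattern. Genes that vary little lie close together, and genes with the same order of mice can lie far apart. The measure is a description of these 6 mice and carries no p. The closest pair was *Cilp* and *Kera*, at 0.102, followed by *Mkx* and *Kera* at 0.12 and *Mkx* and *Cilp* at 0.134. *Comp* and *Cilp2* were 0.202 apart, and each was the nearest of all tested genes to the other. The nearest tested gene to *Scx* was *Rasip1*, which acts in blood vessel formation, at a distance of 0.0124. Both differed little between genotypes, with log2 fold changes of 0.15 for *Scx* and 0.13 for *Rasip1*. The distance of a gene from the median pattern of the 8 was 0.14 for *Mkx*, 0.144 for *Cilp*, 0.149 for *Tnmd*, 0.211 for *Kera* and 0.251 for *Thbs4*, but 0.513 for *Scx*, 0.604 for *Comp* and 0.705 for *Cilp2*. Each gene was itself part of that median, so genes with changes of middling size lie near it by construction. *Comp* and *Cilp2*, with the largest log2 fold changes of the 8, had the same order of mice as *Thbs4*.

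The balance within related pairs was compared in each mouse as a log2 ratio. For *Thbs4* to *Comp* the ratio was 3.70, 2.88 and 2.88 in HET mice 1 to 3 and 3.66, 4.0 and 3.61 in WT mice, so HET mouse 1 lay among the WT mice. The difference of −0.61 had p = 0.3 in a two-sided exact permutation test. *Cilp* to *Cilp2* gave 2.28, 0.78 and 1.83 in HET and 3.24, 3.0 and 2.24 in WT mice, a difference of −1.20 (exact permutation p = 0.2), with HET mouse 1 just above WT mouse 3, and a difference of −0.77 without HET mouse 2. *Tnmd* to *Kera* differed by 0.41 (exact permutation p = 0.3), and by 0.16 without WT mouse 1. After Benjamini-Hochberg adjustment over these 3 ratios each exact permutation p was 0.3, and all 3 ratios overlapped between genotypes.

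Outside the 8 genes, the 10 tested genes nearest to their median pattern were *Cdh11*, *Col12a1*, *Col11a1*, *Atp6v0a4*, *Slc41a2*, *Vasn*, *Olfml3*, *Ssc5d*, *Col16a1* and *Ccn4*, at distances of 0.0779 to 0.144 over the 6 mice. *Cdh11*, a cadherin of mesenchymal cells, was the nearest, at 4.89, 6.11 and 8.00 CPM in HET mice 1 to 3 and 2.21, 4.26 and 4.60 CPM in WT mice. *Col12a1*, a collagen on the surface of fibrils in tendon, was at 30.7, 35.0 and 55.0 CPM in HET and 11.4, 26.2 and 24.5 CPM in WT mice. WT mouse 1 was the lowest and HET mouse 3 the highest in both. The genotypes did not overlap in 8 of the 10, with *Slc41a2* and *Ccn4* as the exceptions. The median pattern of the 8 genes itself separated the genotypes, and the 10 were picked for likeness to it over the same 6 mice. Their separation and their order of mice therefore follow from the choice and are not a separate result. None of the 10 passed the edgeR threshold, with adjusted p between 0.137 and 0.638.

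The other 14 tendon matrix genes on a list of structural and fibril-binding proteins had log2 fold changes above 0 in 14 of 14, with a median of 1.17. The ends of their range were *Dcn*, which encodes the fibril-binding proteoglycan decorin, at 0.58 (SE 0.14, adjusted p = 0.197, edgeR), and *Prg4*, which encodes the lubricant of joint and tendon surfaces, at 2.27 (SE 0.61, adjusted p = 0.406, edgeR). *Prg4* had 882, 902 and 3670 reads in HET mice 1 to 3 and 186, 281 and 630 in WT mice, so HET mouse 3 stood far above the rest. In 12 of the 14 every HET mouse exceeded every WT mouse, against 7.55% of all genes tested. edgeR and limma-voom called 0 of them. DESeq2 called 5, against 1.12% of all genes that it called higher. At an unadjusted edgeR p below 0.05, 13 were higher, against 5.76% of all genes tested. The summed level of the list was 1650, 2560 and 2750 CPM in HET mice 1 to 3 and 720, 1230 and 1300 CPM in WT mice, the lowest mouse of each genotype being the same as for the 8 genes. The amount of tendon in each sample was not measured, and more tendon in a sample and more RNA of these genes per cell cannot be told apart.

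Signals and factors that induce or restrain the tendon programme, among them the TGF-β ligands, receptors and Smad proteins, the early growth response factors and myostatin, were tested for 22 of 23 genes. edgeR, DESeq2 and limma-voom called 0 of them, and at an unadjusted edgeR p below 0.05, 4 of the 22 were higher and 1 was lower in HET mice, against 5.76% and 2.0% of all genes tested. The median log2 fold change was 0.13, and 16 of 22 were above 0, against 45.6% of all genes tested. In 4 of the 22 the lowest HET level exceeded the highest WT level, against 7.55% of all genes tested. *Egr2*, an early growth response factor that acts in tendon collagen expression, was at the upper end with 0.76 (SE 0.32, adjusted p = 0.585, edgeR). *Mstn*, which encodes myostatin, the restraint on muscle growth, was at the lower end with −0.80 (SE 0.27, adjusted p = 0.385, edgeR). *Mstn* had 40, 51 and 74 reads in HET and 98, 64 and 125 in WT mice 1 to 3, and after normalization each HET mouse was below each WT mouse.

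At the myotendinous junction, where fibers end on tendon, and in the costameres that link fibers to matrix, 10 genes had a median log2 fold change of 0.02. Their summed level was 2300 to 2350 CPM in HET and 2180 to 2370 CPM in WT mice. Genes at high levels weigh most in this sum, such as *Ankrd2* at a mean of 834 CPM in HET and 823 CPM in WT mice. The sum therefore says little of genes at lower levels. The upper end was *Col22a1*, a collagen of the junction, at 85.3 ± 15.5 CPM in HET and 54.2 ± 10.4 CPM in WT mice (SD, n = 3). Its log2 fold change was 0.66 (SE 0.17) with an adjusted p of 0.232 in edgeR and 0.00707 in DESeq2. *Col22a1* was the only 1 of the 10 that DESeq2 called, against 1.12% of all genes that it called higher. It was also the only 1 of the 10 without overlap between genotypes. Over all genes tested, 7.55% were higher in HET mice without overlap. *Dmd*, which encodes dystrophin, was at the lower end with −0.07 (SE 0.09, adjusted p = 0.933, edgeR).

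Among the 5 thrombospondin genes, *Thbs4* and *Comp* included, the log2 fold change ran from 0.28 (SE 0.13, adjusted p = 0.691, edgeR) for *Thbs2*, where genotypes overlapped, to that of *Comp*. edgeR and limma-voom called 0 of the 5. At an unadjusted edgeR p below 0.05, 4 were higher in HET mice, against 5.76% of all genes tested. DESeq2 called 2 as higher, *Thbs1* and *Thbs3*, which are not among the 8 genes, against 1.12% of all genes. Of the 9 tested small leucine-rich proteoglycans, the family of *Kera* that also holds decorin and biglycan, all were above 0, with a median of 0.68. *Aspn*, which encodes asporin, had the smallest value of that family at 0.22 (SE 0.24, adjusted p = 0.912, edgeR). *Fmod*, which encodes the tendon proteoglycan fibromodulin, had the largest at 1.73 (SE 0.58, adjusted p = 0.566, edgeR). edgeR and limma-voom called 0 of the 9. At an unadjusted edgeR p below 0.05, 7 were higher in HET mice, against 5.76% of all genes tested. DESeq2 called 4 as higher, *Kera* among them, against 1.12% of all genes. This family shares *Kera* with the 8 genes and others, *Dcn* and *Fmod* among them, with the other tendon matrix genes. Its counts are therefore not separate from theirs.

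**Figure D4:**
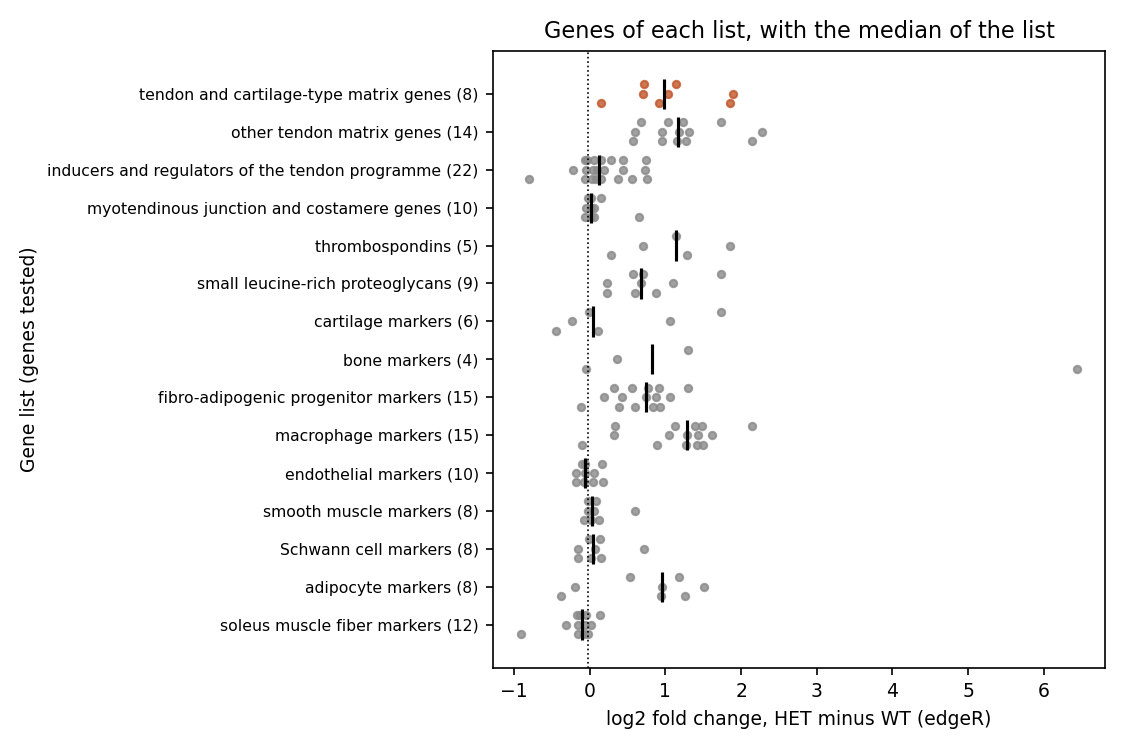
Log2 fold change (HET minus WT, edgeR) of each tested gene of each list (points), the median of the list (bar) and the median of all genes tested (dotted line). The 8 genes (orange) and the other tendon matrix genes have medians of 0.975 and 1.17, and the cartilage list has a median of 0.05. The point at 6.44 is *Ibsp*, which had 4, 0 and 0 reads in the WT mice.

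Of 15 cartilage markers 6 had enough reads to be tested. *Col2a1*, the fibrillar collagen of cartilage, had 94, 110 and 260 reads in HET and 33, 66 and 124 in WT mice 1 to 3. Its genotypes overlapped, with a log2 fold change of 1.06 (SE 0.37, adjusted p = 0.434, edgeR), and it was the third nearest of all tested genes to *Tnmd*, at a distance of 0.136. *Sox9*, the factor of cartilage formation, which other cells also express, had 392 to 534 reads in HET and 332 to 551 in WT mice, with a log2 fold change of −0.02 (SE 0.19, adjusted p = 0.994, edgeR). *Acan*, which encodes aggrecan, the main proteoglycan of cartilage, had 6, 7 and 21 reads in HET and 2, 2 and 0 in WT mice 1 to 3, and *Cnmd*, *Col9a1*, *Col9a3*, *Col10a1*, *Matn1*, *Hapln1*, *Ucma* and *Snorc* were not tested for the same lack of reads. The summed level of the list was 90.1 to 109 CPM in HET and 103 to 112 CPM in WT mice, most of it from *Sox6*, which muscle fibers also express. Of the 6 tested, 3 were above 0, against 45.6% of all genes tested, and edgeR, DESeq2 and limma-voom called 0. At an unadjusted edgeR p below 0.05, 2 were higher and 1 was lower in HET mice, against 5.76% and 2.0% of all genes tested. They ran from *Col9a2* at −0.45 (SE 0.43, adjusted p = 0.892, edgeR) to *Matn3* at 1.73 (SE 0.49, adjusted p = 0.267, edgeR).

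The 15 markers of fibro-adipogenic progenitors, the interstitial fibroblasts of muscle, had a median log2 fold change of 0.75, with 14 of 15 above 0 and none at 0 reads. Their summed level was 1780 to 2210 CPM in HET and 914 to 1340 CPM in WT mice. *Pi16* rose by 1.06 on the log2 scale (SE 0.15, adjusted p = 0.0452, edgeR), the only marker of this list that passed the edgeR threshold. DESeq2 called 6 of the 15 and limma-voom 0. Over all genes, edgeR called 0.143% and DESeq2 called 1.12% as higher. With 1 mouse left out, *Pi16* passed in 1 of 6 fits, the one without WT mouse 3, and its adjusted p was between 0.00622 and 0.266 in edgeR. Without HET mouse 1, HET mouse 3, WT mouse 1 or WT mouse 2, no gene of all tested passed. *Dpp4* was at the upper end with 1.30 (SE 0.34, adjusted p = 0.240, edgeR) and *Hsd11b1* at the lower end with −0.12 (SE 0.25, adjusted p = 0.964, edgeR). The part of these cells in the levels of the 8 genes was not tested.

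The 15 macrophage markers had a median log2 fold change of 1.29, with 14 of 15 above 0 and a summed level of 101 to 142 CPM in HET and 58.3 to 66.9 CPM in WT mice. *Csf1r*, *C1qa*, *C1qb*, *Adgre1*, *Lyz2* and *Ctss* rose past the edgeR threshold, by 1.39, 1.48, 1.43, 1.62, 1.29 and 1.5 on the log2 scale, with adjusted p between 0.0130 and 0.0452. DESeq2 called 8 of the 15 and limma-voom 2, *C1qa* and *Lyz2*. Over all genes, edgeR called 0.143% and DESeq2 called 1.12% as higher. With 1 mouse left out, *Csf1r* passed the edgeR threshold in 1 of 6 fits (without WT mouse 3) and the other 5 in 2 of 6 (without HET mouse 2 and without WT mouse 3). No gene of all tested passed without HET mouse 1, HET mouse 3, WT mouse 1 or WT mouse 2. The ends of the list were *Fcgr1* at 2.14 (SE 0.62, adjusted p = 0.280, edgeR) and *Mertk* at −0.10 (SE 0.19, adjusted p = 0.954, edgeR). The macrophage sum was 122, 101 and 142 CPM in HET mice 1 to 3 and 58.3, 66.9 and 64.0 CPM in WT mice. The part of macrophages in the levels of the 8 genes was not tested.

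By contrast, none of the 10 endothelial markers separated the genotypes, with a median log2 fold change of −0.06 between −0.18 for *Cdh5* (SE 0.11) and 0.18 for *Eng* (SE 0.17). The soleus fiber markers had a median of −0.11, between −0.91 for *Myh4* (SE 1.5, adjusted p = 0.948, edgeR) and 0.14 for *Myh2* (SE 0.09, adjusted p = 0.833, edgeR). *Myh4*, the fastest myosin heavy chain, was at 44.7, 2040 and 167 CPM in HET mice 1 to 3 and 1470, 1770 and 976 CPM in WT mice, so HET mice 1 and 3 were far below the other 4 mice. In both lists 0 genes were called by edgeR, DESeq2 or limma-voom, and 0 had an unadjusted edgeR p below 0.05.

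**Figure D5:**
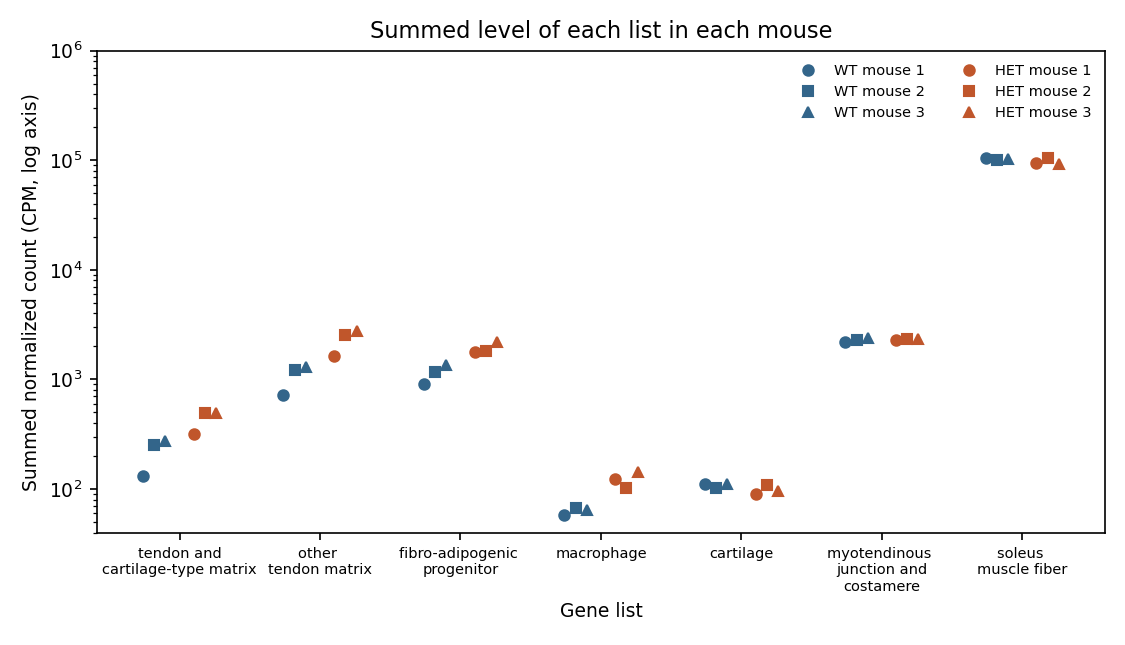
Summed normalized count (CPM, log axis) of 7 gene lists in each mouse, with WT mice in blue, HET mice in orange and a marker shape for each mouse number. The 2 tendon lists share WT mouse 1 as the lowest point and HET mouse 1 as the lowest HET point, and the sums of the fiber list run from 93300 to 106000 CPM and those of the myotendinous list from 2180 to 2370 CPM. Of the myotendinous sum, *Col22a1* made up a mean of only 85.3 CPM in HET and 54.2 CPM in WT mice.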

How the data were processed

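RNA from whole soleus was enriched for poly-A and made into stranded libraries, 1 for each of 6 mice. The submitters' processing notes name STAR 2.7.3a, featureCounts 2.0.3, DESeq2 and the build GRCm38.p6. The authors deposited raw counts per gene, which are not normalized, and a signal table in which the authors divided each raw count by 1 DESeq2 size factor per library. A further file holds the authors' own comparison (fold changes and p-values) and was not used.

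Values were computed from the raw counts with edgeR 4.0.16, DESeq2 1.42.0 and limma 3.58.1 in R 4.3.3, and handled in Python 3.11.15 with pandas 2.3.3, matplotlib 3.10.9 and NumPy 2.4.6. Low genes were removed by filterByExpr with a minimum count of 10 (14696 genes), scaled with TMM and compared by genotype with edgeR's robust quasi-likelihood test over all 6 mice, two-sided, with Benjamini-Hochberg adjustment over all genes tested and a threshold of 0.05. The standard error is the log2 fold change over the square root of the F statistic. The biological coefficient of variation was 0.143. CPM use the TMM factors, and log2 CPM a prior count of 2. DESeq2 gave an adjusted p to 17801 genes.

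Each library came from 1 mouse and counted as 1 replicate, and the chi-square per gene between mice of a genotype was 16.1 to 46.8, where repeated counting gives 1. The 8 genes and the lists were chosen with earlier results of these data known. Named from each list were the genes past the threshold and those at the ends of the range, and named besides were the 10 genes most like the median pattern of the 8. *Bop1*, *Rasip1*, *Myh7*, *Ankrd2*, *Col2a1*, *Sox9*, *Sox6*, *Thbs1*, *Thbs3*, *Mepe* and the cartilage markers without a test were named after their values were seen. Upstream sequences are from RefSeq. The alternatives were other scalings, filters and tests, a replicate block, other prior counts and each mouse left out. The steps were tested on simulated data.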

Additional observations from a re-analysis of the deposited data

How the results depend on the processing

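The count of 0 among the 8 genes past the edgeR threshold held with the other scaling factors, with at least 10 counts in every library, with limma-voom, with the non-robust fit and with each mouse left out. It was 3 with no filter on low counts (*Mkx*, *Cilp* and *Kera*) and 2 with DESeq2 (*Cilp* and *Kera*). Over all genes tested, 21 were higher and 1 lower. These counts were 386 and 18 with no filter, 200 and 10 with DESeq2, 3 and 0 with limma-voom and 6 and 0 with the non-robust fit. With 1 mouse left out, 0 to 77 were higher and 0 to 6 lower: 0 and 0 without HET mouse 1, HET mouse 3, WT mouse 1 or WT mouse 2, and 77 and 6 without WT mouse 3. No log2 fold change of the 8 genes changed sign under any of these settings, and the cause of the differences in counts was not tested.

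The labels number the mice 1 to 3 in both genotypes without stating a shared litter. Deviations of same-numbered mice correlated at 0.203, −0.00578 and −0.0349, and of the 3 numbers only number 1 gave each mouse its best match, so the numbers were not taken as pairs. These correlations are over all genes tested. In the 8 genes, mouse 1 was the lowest mouse of its genotype in 8 of 8, for HET and WT alike. Whether same-numbered mice belong together was therefore not settled for these 8 genes. With the replicate block, 5 of the 8 genes passed (*Tnmd*, *Thbs4*, *Comp*, *Cilp* and *Cilp2*), and over all genes 114 were higher and 2 lower.

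The 3 within-mouse ratios kept their direction under other prior counts and with each mouse left out. Depth limits *Mkx* most, with 48 to 267 reads in a library. With 3 mice per genotype, groups are too small for a test of single outlying mice.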

Other observations

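Of 9 bone markers 4 had enough reads to be tested, *Mepe* was at 0 reads in all 6 mice, and edgeR, DESeq2 and limma-voom called 0. At an unadjusted edgeR p below 0.05, 2 of the 4 were higher in HET mice, against 5.76% of all genes tested. *Alpl*, which other cells also express, was at the lower end with a log2 fold change of −0.05 (SE 0.16, adjusted p = 0.975, edgeR). *Ibsp*, which encodes the bone sialoprotein of mineralized tissue, had 12, 23 and 408 reads in HET mice 1 to 3 and 4, 0 and 0 in WT mice, so nearly all of its reads came from HET mouse 3, and its fitted log2 fold change of 6.44 (SE 2.19, adjusted p = 0.574, edgeR) rests on 4 reads in WT mice. HET mouse 3 was also the mouse with the highest levels of *Mkx*, *Tnmd*, *Cilp* and *Kera*. The highest levels of *Scx*, *Thbs4*, *Comp* and *Cilp2* were in HET mouse 2 instead. A link between these levels and the reads on *Ibsp* was not tested.

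Adipocyte markers had a median log2 fold change of 0.95 over 8 genes, from −0.38 (SE 0.11, adjusted p = 0.312, edgeR) for *Car3*, which fibers also express, to 1.52 (SE 0.72, adjusted p = 0.768, edgeR) for *Cfd*. The genotypes overlapped in 7 of the 8, and edgeR, DESeq2 and limma-voom called 0. At an unadjusted edgeR p below 0.05, 1 was lower in HET mice, against 2.0% of all genes tested. Smooth muscle markers, with a median of 0.04, and Schwann cell markers, with a median of 0.05, had 0 genes called by these tools. At an unadjusted edgeR p below 0.05, 0 smooth muscle markers and 1 Schwann cell marker were higher in HET mice, against 5.76% of all genes tested. Summed levels overlapped between genotypes. They were 5240 to 6180 CPM in HET and 5440 to 5770 CPM in WT mice for smooth muscle. For Schwann cells they were 122 to 143 CPM in HET and 102 to 148 CPM in WT mice.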
